A study of Mus musculus with 4 samples.

Results

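Dux, listed as Duxf3 in the gene annotation, and its activators Dppa2 and Dppa4 were followed as 3 genes out of the 43496 Ensembl genes in the deposited table, chosen by symbol, with earlier results of these data known. The libraries came from E14, a mouse embryonic stem cell line given as strain 12910la and kept on gelatin with serum and LIF, which holds such cells in a pluripotent state. All cells had received a pSuper puro plasmid (1000 ng) that drives a short hairpin RNA (shRNA) and then puromycin at 1 µg per ml, started 24 h after transfection and kept for 4 days. The control group of 2 libraries carried a random shRNA in cells labelled wild type, and the other group of 2 libraries carried an shRNA against MERVL, with the label MERVL knocked down. MERVL, which the labels also call MuERVL, is an endogenous retrovirus transcribed in the 2-cell embryo and in the few embryonic stem cells that resemble it.

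Dux is a transcription factor with paired homeodomains that is made as the embryonic genome is first switched on. It binds the long terminal repeats of MERVL and the promoters of genes of the 2-cell embryo and raises their transcription, and it does the same in the rare embryonic stem cells that enter a 2-cell-like state. Dppa2 and Dppa4 are small nuclear proteins with a SAP domain, a fold that contacts DNA. They form a complex, are present throughout pluripotent cells and bind the Dux locus, where they are needed for its activation. In this order Dppa2 and Dppa4 act upstream of Dux, and Dux acts upstream of MERVL.

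A tandem array on chromosome 10 holds Duxf3, which is annotated from 58229979 to 58232675 on the minus strand (GRCm38). In the GENCODE annotation its exons together cover the whole 2697 bases, in 2 transcripts. Another 4 rows of the table, all in the same array, are AW822073, Gm10807, Gm4981 and Gm19459, with gaps of 5048, 1327, 2172 and 6932 bp to Duxf3. AW822073 and Gm4981 are annotated as protein-coding and both others as unprocessed pseudogenes. Dppa4 (positions 48283733 to 48294237) and Dppa2 (48303908 to 48319723) are neighbours on the plus strand of chromosome 16, with 9670 bp between them, and their exons cover 1662 and 2447 bases.

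How alike the array members are decides how well reads can be given to one of them. The next lines show the 80 bases of the longer Duxf3 transcript (bases 1420 to 1499, within its coding sequence) that differ most among Duxf3, AW822073, Gm10807 and Gm19459; capitals mark the 21 positions at which at least 1 of the 4 differs.

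Duxf3: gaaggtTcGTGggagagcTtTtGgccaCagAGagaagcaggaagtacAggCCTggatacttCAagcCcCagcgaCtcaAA
AW822073: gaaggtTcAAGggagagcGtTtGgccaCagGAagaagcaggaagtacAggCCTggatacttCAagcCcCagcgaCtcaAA
Gm10807: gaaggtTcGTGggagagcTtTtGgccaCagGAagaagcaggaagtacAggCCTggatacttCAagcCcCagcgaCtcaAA
Gm19459: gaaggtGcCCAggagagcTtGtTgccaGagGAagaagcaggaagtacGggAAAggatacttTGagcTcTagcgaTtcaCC

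Even here AW822073 differed from Duxf3 at 5 and Gm10807 at 2 of 80 bases, and Gm19459 at 20. Over their aligned length AW822073 was 98.11% identical to this transcript (1959 bases) and Gm10807 98.74% (795 bases), against 90.91% for Gm19459 (605 bases). Gm4981 aligned to the other end of it, with 83.56% identity over 1089 bases. To the shorter Duxf3 transcript (1486 bases) Gm4981 was 90.31% identical over 1290 bases by blastn, the match by which it was taken as a copy. In the most different 80 bases of the longer transcript (820 to 899), capitals mark 23 variable positions. Gm4981 differed there at 23 and AW822073 at 1.

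Duxf3: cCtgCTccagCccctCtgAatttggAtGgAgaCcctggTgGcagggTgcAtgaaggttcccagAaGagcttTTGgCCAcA
AW822073: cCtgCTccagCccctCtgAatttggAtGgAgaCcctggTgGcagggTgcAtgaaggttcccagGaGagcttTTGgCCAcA
Gm4981: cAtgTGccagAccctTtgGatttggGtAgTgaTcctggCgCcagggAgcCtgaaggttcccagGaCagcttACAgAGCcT

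The counts of single array rows are therefore uncertain, and their sum is given beside Duxf3 throughout.

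In RefSeq, Duxf3 starts upstream of the GENCODE models. The 250 bases before that start (chr10:58233090-58233339, GRCm38.p6, minus strand) are shown because they hold TGATTNAAT, core letters of the sequence known to be bound by mouse Dux. Capitals mark the match, which begins 140 bases before the start.

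Duxf3: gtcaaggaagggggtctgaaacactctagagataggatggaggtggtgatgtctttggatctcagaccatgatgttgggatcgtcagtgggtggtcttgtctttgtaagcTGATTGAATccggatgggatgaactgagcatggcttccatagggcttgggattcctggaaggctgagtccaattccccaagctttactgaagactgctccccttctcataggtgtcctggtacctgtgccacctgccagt

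On both strands, TGATTNAAT was found in 0.718% of the 32851 promoter windows of 300 bases in the RefSeq table. For the Dux target genes described below it was found in 6 of 24 windows (25%). Of these genes, Zscan4b, Zscan4c and Zscan4f belong to the same family. AF067061 and Gm21761 held the same match at the same position, and Gm13057 was the remaining gene. The 6 windows are thus not independent of each other. These letters were chosen after the sequences had been seen. The table gave a promoter for Duxf3 and not for Dppa2 or Dppa4. A match is a description of the letters and says nothing on whether Dux was bound.

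The libraries held 11628887 to 16067854 estimated counts. Embryonic stem cell markers were present in each library, with Pou5f1 between 1244 and 1574 CPM and Nanog between 803 and 1266 CPM, and none of the 15 passed the edgeR quasi-likelihood test. Of these 15, 11 had positive log2 fold changes (median 0.20). In 9 of the 15 both MERVL shRNA libraries lay above both controls, against 23% of all genes. The part of this shift in the values of Dux was not tested. Summed over 2277 copies, MERVL stood at 4662 and 1434 CPM with random shRNA and at 1163 and 574 CPM with MERVL shRNA, and the log2 fold change of the sum was -1.83 ± 0.56 (SE; edgeR adjusted p = 0.283), or -0.73 without random shRNA replicate 1 (edgeR adjusted p = 0.000144). Random shRNA replicate 1 stands apart from the other 3 libraries in several of the genes below, so results are also given without it. CPM here means the estimated count per fixed library size after TMM scaling, and fold changes are MERVL shRNA relative to random shRNA. In bulk RNA, fewer 2-cell-like cells and less RNA in each such cell cannot be told apart. Nothing in the labels says that libraries of a group came from separate cultures, so the tests weigh only the spread from library to library, which may be technical.

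Dux RNA was scarce in all libraries and lowest in both with MERVL shRNA. The estimated counts of Duxf3 were 108 (replicate 1) and 34.8 (replicate 2) for the random hairpin, and 13.3 (replicate 1) and 17.7 (replicate 2) for the hairpin against MERVL. These are 6.86 and 2.92 CPM against 0.835 and 1.25 CPM, with exact Poisson 95% intervals of 5.65 to 8.32, 2.04 to 4.08, 0.435 to 1.4 and 0.757 to 2.02 CPM. Both control libraries lay above both MERVL shRNA libraries, but the controls themselves differed 2.35-fold, and the interval of the lower control begins at the upper end of that of MERVL shRNA replicate 2. Intervals of this kind cover counting error only.

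As group means, Duxf3 stood at 4.89 ± 2.79 CPM (SD, n = 2) in the controls and at 1.04 ± 0.296 CPM (SD, n = 2) in the knockdown, a 4.68-fold difference. The log2 fold change was -2.24 ± 0.54 (SE, 95% interval -3.55 to -0.93), which did not pass the edgeR test (unadjusted p = 0.00543, adjusted p = 0.329). By edgeR 0 of the 3 genes passed, where 0.00636% of the 15735 genes tested did (0% lower). In 2 of them, Duxf3 and Dppa2, both MERVL shRNA libraries lay below both controls, as in 21.8% of all genes. With random shRNA replicate 1 left out, Duxf3 had -1.49 ± 0.51 (edgeR adjusted p = 0.031), with the lone control library assumed to vary like the other group, and 7.32% of genes were then called lower. With random shRNA replicate 2 left out instead it had -2.71 ± 0.37 (edgeR adjusted p = 1.26e-11), and 13.7% of genes were called lower. Duxf3 did not pass without MERVL shRNA replicate 1 (-1.91 ± 0.81, edgeR adjusted p = 0.703) or without MERVL shRNA replicate 2 (-2.56 ± 0.85, edgeR adjusted p = 1). DESeq2 called Duxf3 lower with all 4 libraries (-2.23 ± 0.66, DESeq2 adjusted p = 0.0456), as it did 0.764% of genes.

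The near copies of Dux followed the same order of groups. AW822073 was at 2.61 and 0.601 CPM with random shRNA and at 0.586 and 0.154 CPM with MERVL shRNA. Gm4981 had 47.1 and 11.5 estimated counts in the controls and 10 and 0.5 with MERVL shRNA. Both rows were highest in random shRNA replicate 1, while replicate 2 was 1.03-fold (AW822073) and 1.53-fold (Gm4981) above MERVL shRNA replicate 1. Gm10807 was at 1.94 and 1.13 CPM against 0.290 and 0.234 CPM, and Gm19459 at 1.03 and 0.671 against 0.251 and 0.367 CPM. For these pseudogene rows the fold between the nearest libraries of the groups was 3.9 and 1.83, against 1.71 and 1.54 between the controls. Those folds rest on 13.5 against 4.62 estimated counts for Gm10807 and 8 against 5.17 for Gm19459, with overlapping Poisson 95% intervals. Gm10807, Gm19459 and Gm4981 passed the filter on low counts through the controls alone, and AW822073 did not pass it.

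Summed over the 5 array rows, Dux stood at 15.5 and 6.29 CPM with random shRNA and at 2.59 and 2.04 CPM with MERVL shRNA, a sum that does not depend on how reads were split among these rows. The log2 fold change of the sum was -2.25 ± 0.45, close to that of Duxf3, and did not pass (edgeR adjusted p = 0.21). Without random shRNA replicate 1 it was -1.44 ± 0.30 (edgeR adjusted p = 0.000104). Duxf3 took 44.4% and 46.4% of the array's counts in the controls, and 32.2% and 61.3% with MERVL shRNA. MERVL had 302 and 228 counts per count of the Dux array in the controls and 449 and 281 with MERVL shRNA, so this ratio overlapped between groups.

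**Figure D1:**
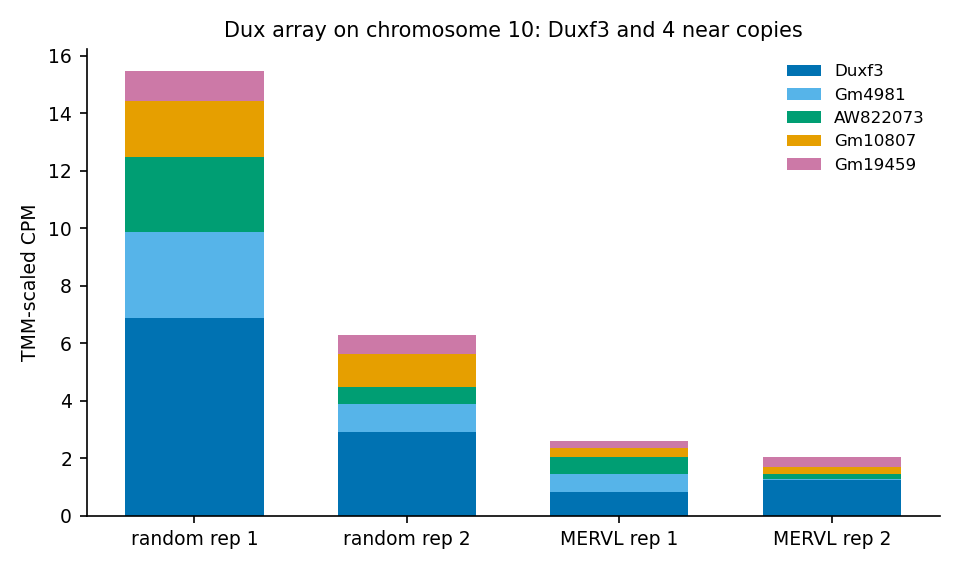
TMM-scaled CPM (y axis) of the 5 rows of the Dux array, stacked, in each of the 4 libraries (x axis). The stacks reach 15.5 and 6.29 CPM with random shRNA and 2.59 and 2.04 CPM with MERVL shRNA, and Duxf3 is the largest single part in each library.

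The Duxbl genes on chromosome 14, which encode relatives of Dux, were also lower in both MERVL shRNA libraries, as were 21.8% of all genes tested. Duxbl1 had 2.04 and 1.51 CPM in the controls against 0.524 and 0.438 CPM, and its log2 fold change was -1.92 ± 0.46 (edgeR adjusted p = 0.329). Duxbl2 and Duxbl3 had -1.70 ± 0.50 and -1.78 ± 0.50, neither past the edgeR threshold. In all 3 genes the controls differed by 1.35-fold to 1.59-fold, less than they did for Duxf3. Duxbl1 passed the filter on low counts through the controls alone. The 3 rows had nearly the same estimated counts in each library, such as 32, 35.3 and 37 in random shRNA replicate 1. Whether they share reads was not tested, so they do not count as 3 separate results. Together with Duxf3 these rows summed to 13.5 and 7.37 CPM against 2.69 and 2.53 CPM, a log2 fold change of -2.01 ± 0.35 (edgeR adjusted p = 0.171).

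Dppa2 was high in a single library. It stood at 265 CPM in random shRNA replicate 1 and at 121 CPM in the other control, while MERVL shRNA replicate 1 had 111 CPM and replicate 2 had 117 CPM. The first library was 2.20-fold above the other control, whereas that other control was 1.03-fold above the higher MERVL shRNA library, with overlapping Poisson intervals (114 to 127 and 111 to 123 CPM). The log2 fold change of Dppa2 was -0.76 ± 0.34 (95% interval -1.59 to 0.07), and it did not pass the edgeR test (unadjusted p = 0.0659, adjusted p = 0.396). Without random shRNA replicate 1 it was -0.08 ± 0.12 (edgeR adjusted p = 0.751), and without random shRNA replicate 2 it was -1.20 ± 0.12 (edgeR adjusted p = 8.39e-22). Which control was kept thus set whether a difference was found.

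Dppa4 was level across the libraries. Its values were 137 and 157 CPM with random shRNA and 157 and 142 CPM with MERVL shRNA, so the groups overlapped. The means were 147 ± 14.3 CPM for the controls and 150 ± 10.4 CPM for the knockdown (SD, n = 2 each), with a log2 fold change of 0.03 ± 0.15 (edgeR adjusted p = 0.952). Its 95% interval, from -0.33 to 0.38, leaves out a change in Dppa4 as large as that measured for Duxf3. The sign of so small a value turned with library-total scaling (-0.03) and without random shRNA replicate 1 (-0.06).

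**Figure D2:**
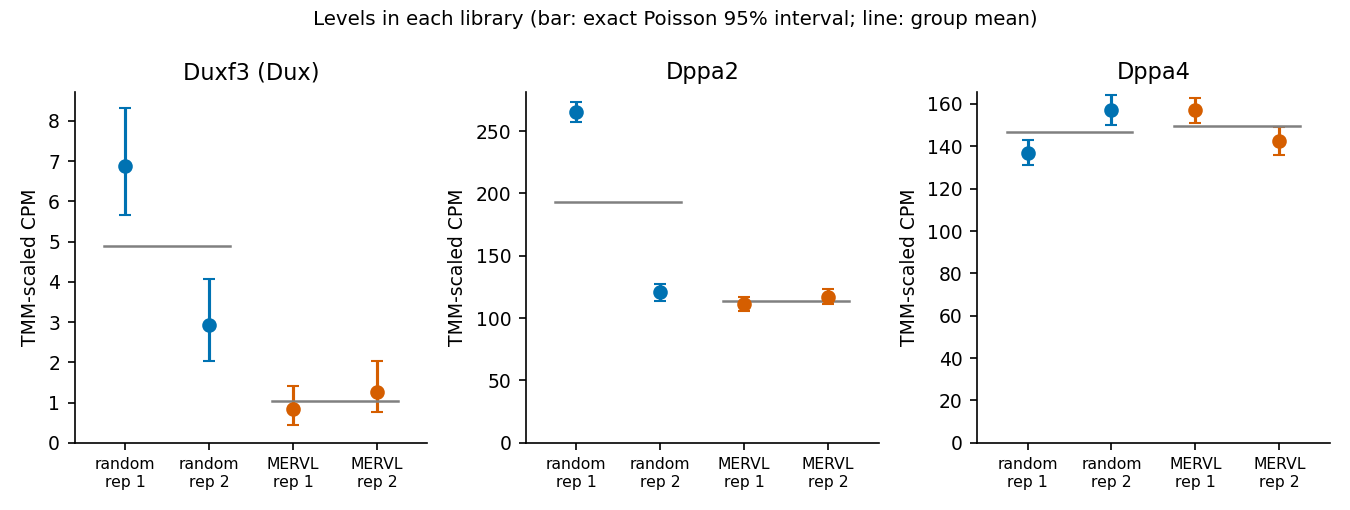
Level of Duxf3, Dppa2 and Dppa4 in TMM-scaled CPM (y axis, separate scales from 0) in each library (x axis); points are libraries, bars exact Poisson 95% intervals and grey lines group means. Duxf3 is lower in both MERVL shRNA libraries (0.835 and 1.25 CPM), Dppa2 is high in random shRNA replicate 1 alone (265 CPM), and Dppa4 stays between 137 and 157 CPM.

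The partners Dppa2 and Dppa4 therefore did not keep 1 ratio. Per kilobase of exon, Dppa2 was at 108, 49.3, 45.5 and 47.8 CPM and Dppa4 at 82.3, 94.5, 94.5 and 85.7 CPM, with both controls first and each group in replicate order. On that scale Dppa2 stood 1.32 times as high as Dppa4 in random shRNA replicate 1, and at 0.522, 0.481 and 0.557 of it in the other libraries. Duxf3 was far below both, at 2.54, 1.08, 0.310 and 0.465 CPM per kilobase. Across all 15735 genes tested, 2.86% had a larger gap than Dppa2 between the random shRNA libraries on log2(CPM + 1). For Duxf3 4.25% had a larger gap, and for Dppa4 63.6%. The added 1 narrows the gap of a scarce gene such as Duxf3, whose controls differed 2.35-fold in CPM against 2.20-fold for Dppa2.

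Rows of retrocopies of Dppa2 and Dppa4 held few counts. Rows whose transcripts are at least 90% identical to Dppa2 over at least 600 bases included Gm9788 (99.338% identical over 906 bases), which had 19.5, 6.50, 13.0 and 15.0 estimated counts in the same order of libraries. Dppa2 itself held between 99.04% and 99.51% of the counts of this group. Dppa4 held between 99.63% and 99.71% of those of its own. These shares were taken after reads had been given to rows, so they cannot show how many reads came from a copy. Copies without a row, such as Gm9298 (94.945% identical to Dppa2 over 910 bases), are not in them. With the copies added, the log2 fold changes were -0.77 ± 0.33 for Dppa2 and 0.02 ± 0.15 for Dppa4 (edgeR adjusted p = 0.412 and 0.978).

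Of the genes with a row within 500 kb of Dppa2 and Dppa4, Morc1 was the single other gene to pass the filter on low counts. Morc1, a repressor of transposons in male germ cells, lies 111513 bp downstream of Dppa2 and stood at 85.9 and 105 CPM in the controls against 127 and 128 CPM with MERVL shRNA. Its log2 fold change was 0.42 ± 0.15 (edgeR unadjusted p = 0.0302, adjusted p = 0.338). Both MERVL shRNA libraries lay above both controls, as in 23% of all genes tested. Outside the array, the neighbours of Duxf3 that passed the filter had small values: Gcc2, a golgin, was at 0.02 ± 0.29, the focal adhesion adaptor Lims1 at -0.17 ± 0.16, the nuclear pore protein Ranbp2 at 0.26 ± 0.15, Ccdc138 at 0.23 ± 0.24 and Smpdl3a at 0.18 ± 0.58. None of these passed the edgeR test, and Gcc2 begins 22821 bp from Duxf3.

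The second deposited table, of scores normalized by the authors, gave another picture of the controls. For Duxf3 the scores were 57 and 70 with random shRNA and 13 and 18 with MERVL shRNA, so the control that was 2.35-fold higher by CPM was here the lower of the pair. Dppa2 had scores of 2447 and 2596 against 1661 and 1705, so random shRNA replicate 2, level with the MERVL shRNA libraries by CPM, stood above both. Dppa4 had 2142 and 2137 against 2228 and 2038. Across 15735 genes the median gap between the random shRNA libraries was 0.283 on log2(CPM + 1) and 0.0293 on log2(score + 1). In 49.7% of these genes the order of the random shRNA libraries differed between CPM and score. In random shRNA replicate 1, Duxf3 had 108 estimated counts and a score of 57, but Dppa4 had 2143 and 2142. The scores are thus not a single scaling of each library's counts. In limma on log2(score + 1) the changes were -1.98 ± 0.21 for Duxf3 (limma adjusted p = 0.0347), -0.58 ± 0.05 for Dppa2 (limma adjusted p = 0.034) and -0.01 ± 0.07 for Dppa4 (limma adjusted p = 0.955). By that test 10.1% of all genes were lower, and the smaller gap between the controls enters its errors. With a pseudocount of 0.5 that share was 9.93%, and edgeR with no filter on low counts, which passed Duxf3 and Dppa2, called 1.81% of genes lower.

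**Figure D3:**
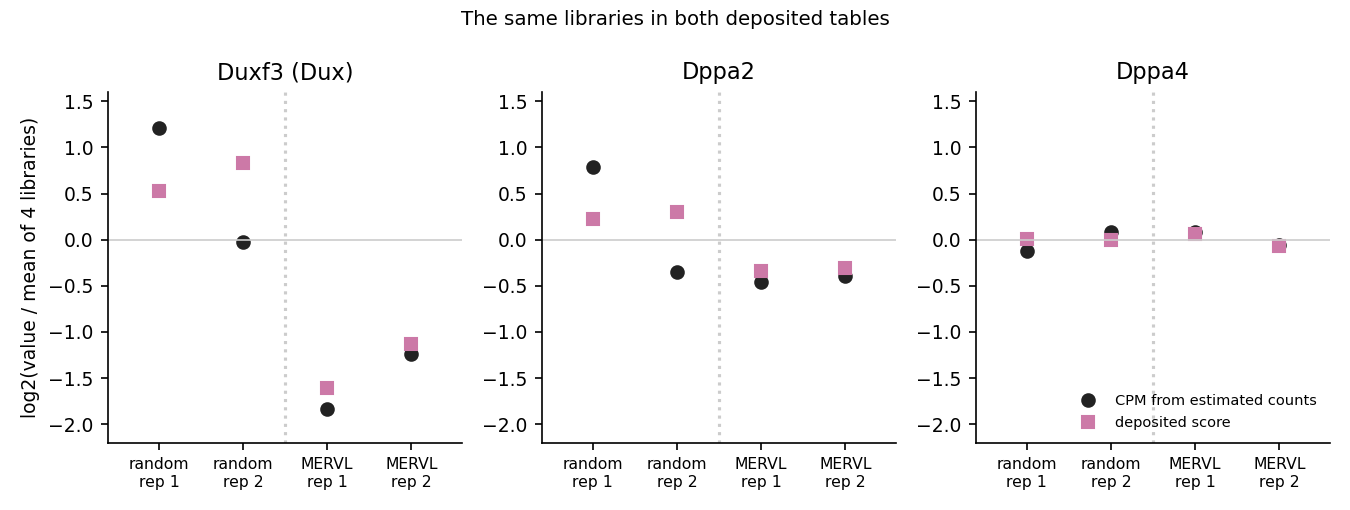
Each library's value divided by the mean of all 4 libraries, on a log2 scale (y axis), from estimated counts as CPM (circles) and from the deposited scores (squares), for Duxf3, Dppa2 and Dppa4. By CPM the random shRNA libraries are apart for Duxf3 and Dppa2, while by score they are close (57 and 70, 2447 and 2596) and above both MERVL shRNA libraries.

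**Figure D4:**
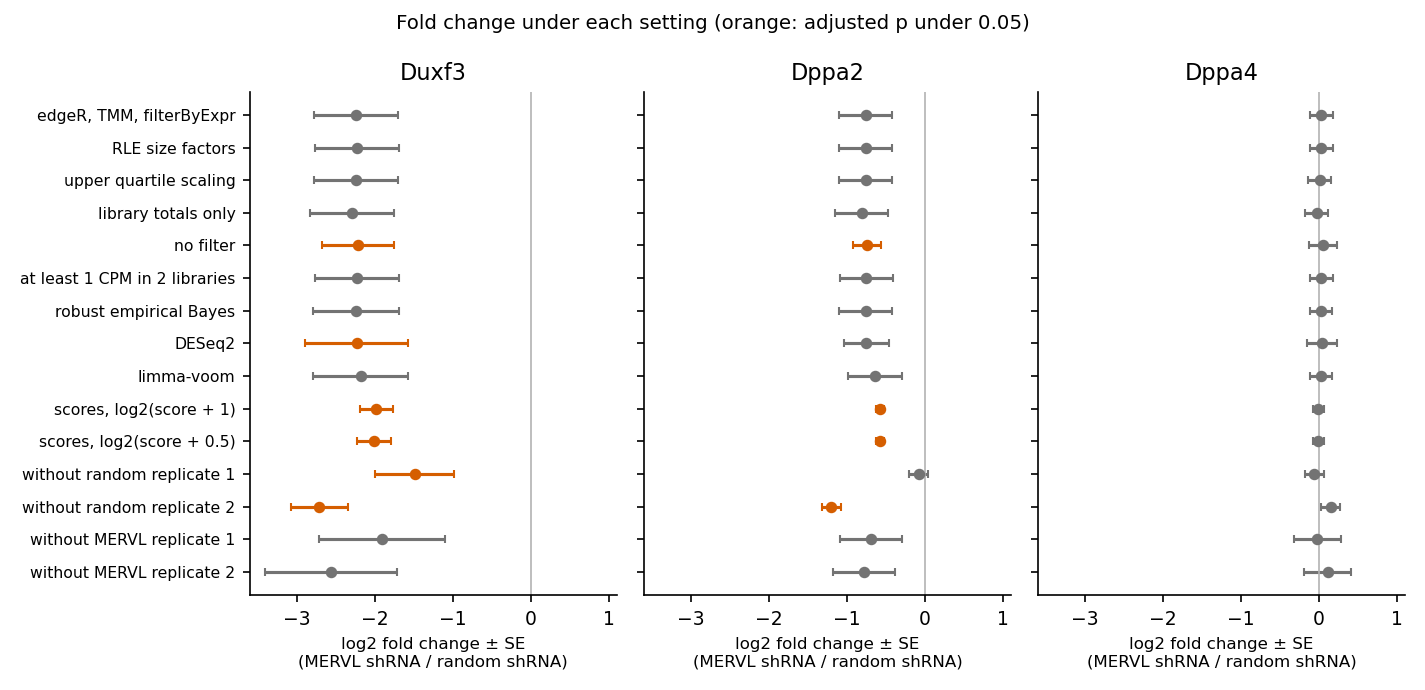
Log2 fold change ± SE (x axis) of the 3 genes under 15 settings (y axis); orange marks an adjusted p under 0.05. Duxf3 is negative in 15 of 15 and past the threshold in 6. Dppa2 is negative in 15, with values from -1.20 to -0.08, and past the threshold in 4. Both counts include fits that leave out a random shRNA library. Dppa4 lies between -0.06 and 0.15. The replicate block is not shown.

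Genes known to be bound or induced by Dux mostly had lower values with MERVL shRNA. The list was drawn up with earlier results of these data known, so its counts describe these libraries and are no independent support for a direction. Of 46 listed, 42 had a row and 36 passed the filter on low counts, 2 of them through the controls alone (209 of all 15735 genes tested), and 6 fell below it. All 36 had a negative log2 fold change, where 49.5% of all genes tested did, and their median was -1.91 against 0.00 over all genes. In 32 of them both MERVL shRNA libraries lay below both controls, against 21.8% of all genes. None passed the edgeR test over all features, and 31 had an unadjusted p under 0.05, against 6.35% of all genes in that direction. The summed level of the list was 3963 and 1391 CPM in the controls and 1099 and 809 CPM with MERVL shRNA, so random shRNA replicate 1 stood apart here as well. Without that library the median was -0.83.

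Most single targets shared this order. In others the groups overlapped, such as Calcoco2, with 87.6 and 29.6 CPM in the controls against 33.5 and 35.5 CPM. A common mark of the 2-cell-like state, the telomere factor Zscan4c, was at 438 and 124 CPM in the controls and at 101 and 53.8 CPM with MERVL shRNA (-1.86 ± 0.59). Zfp352, a zinc finger gene of the 2-cell embryo, had 6.89 and 2.10 CPM against 1.38 and 0.426 CPM (-2.30 ± 0.75). Members with the smallest p were Gm13119 (-1.31 ± 0.23), a Prame-like gene, Tcstv1 (-5.56 ± 1.14), Gm13078 (-2.23 ± 0.46) and Ubtfl1 (-2.53 ± 0.53), with edgeR adjusted p-values from 0.283 to 0.323. Of these, Tcstv1 passed the filter on low counts through the controls alone. It stood at 17.2 and 2.31 CPM there and near the floor, at 0.126 and 0.284 CPM, with MERVL shRNA. Eif1a, a translation initiation factor, was the member closest to 0 (-0.02 ± 0.14). Many of these genes have near-identical copies, so single values are uncertain.

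Other factors reported to raise Dux or the 2-cell-like state differed among themselves. The list of 5 shares Nelfa and Zscan4c with the target list. Nelfa, a subunit of the negative elongation factor that can start the 2-cell-like programme, stood at 258 and 122 CPM in the controls against 87.7 and 83.5 CPM, a log2 fold change of -1.15 ± 0.33 (edgeR adjusted p = 0.329). Gata2, a GATA transcription factor, was at 1.85 and 1.09 CPM against 0.377 and 0.355 CPM (-1.99 ± 0.52, edgeR adjusted p = 0.329). Trp53, which encodes p53, overlapped between groups, with 398 and 241 CPM against 265 and 280 CPM (-0.23 ± 0.24). Dppa3, a maternal factor that limits DNA methylation, was below the filter with 5 and 15 estimated counts in the controls and 8 and 7 with MERVL shRNA. The median over the 4 tested, of which Gata2 passed the filter through the controls alone, was -1.50, and 0 passed the edgeR test. Without random shRNA replicate 1 that median was -0.67, and on the deposited scores it was -0.98.

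Factors reported to keep Dux or MERVL silent showed no common direction. Of 34 with a row, all were tested, 20 had positive and 14 negative values, and the median was 0.03 (0.16 without random shRNA replicate 1, and -0.03 without random shRNA replicate 2). None passed the edgeR test, and 4 had an unadjusted p under 0.05 (2 in each direction), where 11.2% of all genes did. The Polycomb proteins Ezh2 and Suz12 had -0.51 ± 0.15 and -0.39 ± 0.14, while the deacetylase Hdac2 and the SUMO ligase Pias4 had 0.44 ± 0.15 and 0.32 ± 0.13, with edgeR adjusted p-values from 0.329 to 0.366. Ezh2 was at 156 and 131 CPM in the controls and at 95.9 and 105 CPM with MERVL shRNA. Trim28, the co-repressor of retroviral elements, was at 2636 and 1575 CPM against 1606 and 1746 CPM (-0.33 ± 0.26), high in the same control library as Dppa2. Smchd1, a repressor bound at the Dux array, stayed between 63.0 and 70.5 CPM (-0.06 ± 0.13), and the RNA-binding protein Lin28a had -0.15 ± 0.15.

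Among 5 genes tied to Dppa2 or Dppa4 in the literature, Syce1, of the synaptonemal complex, was at 43.9 and 36.0 CPM in the controls and at 22.8 and 19.6 CPM with MERVL shRNA. Its log2 fold change of -0.91 ± 0.18 did not pass (edgeR adjusted p = 0.294), and the gap within the controls was small beside that between groups. Pnldc1, a trimmer of piRNAs, had 0.18 ± 0.19, the endoderm factor Gata4 0.25 ± 0.38 and the ubiquitin ligase Trim36 -0.10 ± 0.39. Nkx2-5, a cardiac homeobox gene, was below the filter, between 0.497 and 0.702 CPM. Of the other genes that carry the Dppa name, Dppa5a, an RNA-binding protein of pluripotent cells, was abundant at 1486 and 2167 CPM against 2169 and 2618 CPM (0.39 ± 0.23, edgeR adjusted p = 0.528), and Dppa1 was at 0 counts in each library.

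**Figure D5:**
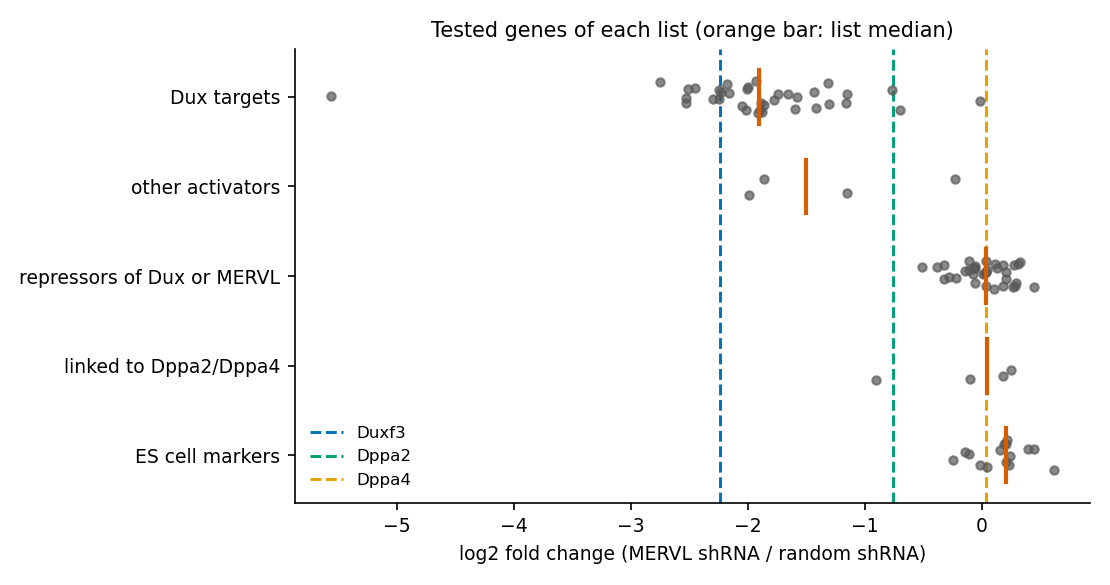
Log2 fold change (x axis) of each tested gene (points, spread vertically for sight) in 5 gene lists (y axis); orange bars are list medians and dashed lines the values of Duxf3, Dppa2 and Dppa4. The 36 tested Dux targets are all below 0, where 49.5% of all genes tested are. Their median is -1.91, near Duxf3, while repressors, with a median of 0.03, lie around Dppa4. Without random shRNA replicate 1 the target median is -0.83 and Duxf3 is at -1.49.

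Markers of other cells also differed in level between the groups in part, and none of the fibroblast, trophectoderm and primitive endoderm markers passed the edgeR test. The 13 fibroblast markers summed to 41.6 and 48.9 CPM in the controls and to 25.1 and 21.3 CPM with MERVL shRNA, 5 of 6 tested were negative (49.5% of all genes), and Col3a1, Lum, Dcn and Postn were at 0 in each library. In that list the surface protein Thy1 had -1.73 ± 0.22 (edgeR adjusted p = 0.211). Thy1 alone stood at 23.1 and 28.9 CPM in the controls and at 8.67 and 6.88 CPM with MERVL shRNA. It thus made up most of the difference in the sum. The fibroblast median was -0.62, or -0.38 without random shRNA replicate 1. Trophectoderm markers had a median of -0.71 over 8 tested, or -0.28 without random shRNA replicate 2. In 5 of the 8 both MERVL shRNA libraries lay below both controls (21.8% of all genes), and the list summed to 56.4 and 87.3 CPM in the controls against 51.5 and 53.2 CPM. Primitive endoderm markers had a median of 0.00 over 11, which ranged from -0.24 to 0.11 when single libraries were omitted. The part of such cells in the values of Dux was not tested.

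Genes whose profile over the 4 libraries was nearest to each of the 3 were taken from 10248 named genes with a mean of at least 5 CPM, by the root mean square difference of centred log2(CPM + 1). Nearest to Duxf3 were Dgat2, an enzyme of triglyceride synthesis (0.073), the imprinted zinc finger gene Plagl1 (0.0912), the histone gene Hist1h4i (0.135) and Kdm4dl (0.16), and Dppa2 was at 0.412. Dgat2 had 15.9 and 8.30 CPM in the controls against 3.39 and 4.54 CPM. Its log2 fold change was -1.62 ± 0.38 against -2.24 for Duxf3, a scarce gene whose profile the added 1 narrows. Nearest to Dppa2 were the water channel Aqp3 (0.0416), the chemokine Cx3cl1 (0.0523), the retinoid receptor Rxra (0.0704) and Polr2a, the largest subunit of RNA polymerase II (0.0807). Polr2a was at 673 CPM in random shRNA replicate 1 and between 330 and 332 CPM in the other libraries, so its excess there was like that of Dppa2. Near to Dppa4 were Snhg17, Dhx57 and Gga1, at 0.0109 to 0.0141. With 4 libraries such likeness is a description of these samples.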

How the data were processed

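Libraries for mRNA sequencing were made from total RNA with a randomly primed kit, per the labels' protocols, for 2 random shRNA and 2 MERVL shRNA samples, grouped and numbered by title. The tools HISAT2 and Trim Galore and the build mm10 (GRCm38) are named per the submitters' processing notes. Their versions, the counting program and strand use were not given in the sources used here. The authors deposited estimated counts for 45773 features, which were rounded to whole numbers for tests, and a table of normalized scores, whole numbers that cover the 17823 features exceeding 5 estimated counts in 2 or more libraries. How the scores were made is not given. Symbols matched 42329 of 43496 gene identifiers.

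All genes entered 1 fit beside the MERVL copies, in the edgeR 4.0.16 quasi-likelihood test (R 4.3.3; TMM, filterByExpr, no replicate term, 2-sided, Benjamini-Hochberg over 16353 features, threshold 0.05). Standard errors come from the F statistic, and intervals use its degrees of freedom. Sums were tested in separate fits with the genes. Alternatives were other scalings and filters, DESeq2 1.42.0, limma-voom and limma 3.58.1 on the scores (pseudocount 1 or 0.5, mean at least 1), a replicate block and leaving out each library. Tests were also run on simulated counts with known changes. Copies were found with blastn 2.17.0 in GENCODE M21 transcripts, promoters came from RefSeq (GRCm38.p6), and the array sums and copy sums were added after seeing the data. The genes and lists were chosen with earlier results of these data known. Genes named are the 3 members, rows whose symbol begins with Dux, the 4 nearest profiles of each member (1 of them is not reported here), up to 4 of each list by smallest p, a fixed set (Zscan4c, Zfp352, Nelfa, Trim28, Smchd1, Lin28a, Trp53, Syce1, Pou5f1, Nanog) and tested neighbours within 500 kb of Dppa2 or Dppa4. Other genes named were chosen after their values were seen, such as array rows, copies, the neighbours of Duxf3, Dppa1, Dppa3 and Eif1a.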

Additional observations from a re-analysis of the deposited data

How the results depend on the processing

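Duxf3, the Dux array, the Dux and Duxbl sum, Dppa2 and the MERVL total kept a negative sign under every alternative run. Other scalings, a 1 CPM filter, a robust prior and limma-voom left each of these unpassed, with adjusted p-values from 0.325 to 0.398 for Duxf3 and 0.373 to 0.481 for Dppa2. With no filter Duxf3 (-2.22), Dppa2 (-0.74), the Dux array (-2.24), the Dux and Duxbl sum (-2.01), the MERVL total (-1.82) and Dppa2 with its copies (-0.77) passed. DESeq2 passed Duxf3 (-2.23), the array (-2.24) and the Dux and Duxbl sum (-2.01). On scores Duxf3 (-1.98, and -2.01 with a pseudocount of 0.5) and Dppa2 (-0.58 with both) passed. The replicate block passed Duxf3 (-2.15, adjusted p = 0.0215), the array (-2.15), the Dux and Duxbl sum (-1.96) and the MERVL total (-1.68), and called 362 genes against 1 without it; the labels do not say what a shared number means, and deviations of replicate 1 in the 2 groups had a correlation of 0.039 across genes. Dppa4, never past the threshold, turned sign with library totals (-0.03, and -0.03 with copies) and on scores (-0.01 with both). With a library left out, ranges were -2.71 to -1.49 for Duxf3, -1.20 to -0.08 for Dppa2, -0.06 to 0.15 for Dppa4, -2.74 to -1.44 for the array, -2.38 to -1.49 for the Dux and Duxbl sum, -2.44 to -0.73 for MERVL, -1.23 to -0.09 and -0.08 to 0.11 for Dppa2 and Dppa4 with copies, and 2 to 4800 for genes called. Genes called otherwise numbered 737 with no filter, 174 with DESeq2, 0 with limma-voom, and 3393 and 3326 on scores with pseudocounts 1 and 0.5. List medians with a library left out ran from -2.50 to -0.83 for Dux targets, -1.94 to -0.67 for activators, -0.03 to 0.16 for repressors, -0.28 to 0.16 for genes tied to Dppa2 or Dppa4, -0.58 to 0.70 for genes with the Dppa name, 0.17 to 0.28 for stem cell, -0.79 to -0.38 for fibroblast, -0.24 to 0.11 for primitive endoderm and -0.96 to -0.28 for trophectoderm markers, and 0.07 to 0.26 for reference genes (0.07 with all libraries). On scores medians were -0.98 for activators, -0.11 for genes tied to Dppa2 or Dppa4, -0.41 for fibroblast markers (the same with both pseudocounts), and -0.09 and -0.10 for the Dppa name, which was at -0.08 with no filter and -0.11 with DESeq2. Primitive endoderm markers were at 0.21 with limma-voom and 0.13 with the block. The cause of these shifts was not tested. Counts of 13 to 18 for Duxf3 with MERVL shRNA limit its precision.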
